A study of Mus musculus with 24 samples.

Results

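MYOZ1, MYH2 and ACTA1 are genes of fast skeletal muscle that had reads in the lung libraries of transgenic mice. They are 3 of the 7493 genes in the expression table, and they were chosen by their FPKM in lung relative to the other tissues. Their levels by tissue are therefore given as a description, with no test. All 3 passed the filter on low values, at least 1 FPKM in at least 3 libraries.

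Skeletal muscle contracts through the sarcomere, in which thick filaments of myosin pull on thin filaments of actin that are anchored at the Z-disc. MYH2 encodes the myosin heavy chain of fast type IIA fibres, ACTA1 encodes the actin of adult skeletal muscle thin filaments, and MYOZ1 (calsarcin-2) is a Z-disc protein of fast fibres that binds alpha-actinin and the phosphatase calcineurin. Heart muscle builds the same structure mainly from other paralogs, with MYH6 and MYH7 as myosins and ACTC1 as actin. In mice, cardiac muscle cells also line the walls of the pulmonary veins within the lung.

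All libraries came from mice carrying SENCR-BAC, a bacterial artificial chromosome with the human long non-coding RNA gene SENCR, and the library names carry the letters KI. Bulk RNA was sequenced from lung, stomach, heart, aorta, spleen, kidney, liver and brain, with 3 libraries per tissue. Every group carries the transgene, so no library of mice without it enters a comparison. The sources used here give no strain, age or sex and do not say which animal each library came from, so p-values measure only the spread between these libraries.

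Depth was low. The recovered read totals ran from 461450 to 496563 in lung, 269941 to 332406 in stomach and 350842 to 360456 in heart, and from 193900 to 642307 over all 24 libraries. Mouse reads were counted on a human genome, so a mouse gene is seen only where its sequence resembles the human one, and levels of different genes are not on one footing even per length. The labelled tissues were checked against marker genes. Lung had NKX2-1, the transcription factor of lung epithelium, at 216 ± 9.33 FPKM (SD, n = 3), with TBX4 of lung mesenchyme at 19.6 ± 8.51 FPKM. Only 3 of 16 lung epithelial markers were in the table, 2 of them highest in lung, and the surfactant genes on that list were not in it. Heart was highest in 14 of 17 cardiomyocyte genes and stomach in 3 of 4 stomach epithelial genes. Aorta replicates 1 and 3 held most reads of mitochondrially encoded genes, and leaving both out moved the lung difference of MYOZ1 only to 5.22, of ACTA1 to 3.28 and of MYH2 to 3.47.

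The sequences of these genes bear on what a read can tell. In the mouse, build GRCm38.p6, Acta1 lies on chromosome 8 (chr8:123891758-123894775), Myh2 on chromosome 11 (chr11:67171027-67197517) and Myoz1 on chromosome 14 (chr14:20649102-20656540). The human genes on which the reads were counted are not used here. The identities below are between mouse genes, and how well mouse reads fit each human paralog was not computed. Over the coding sequence, taken as the longest open reading frame of GENCODE M21 transcripts, mouse Acta1 matched Actc1 at 86.2% of 1134 aligned bases, with a longest identical run of 29 bases. It shared a run of 77 bases with Actb and 59 with Actg1. The smooth muscle actins Acta2 and Actg2 matched it at 85.4% and 85.1%.

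Myh2 is closer still to Myh1, Myh8 and Myh4 among its neighbours. Its coding sequence matched Myh1 at 91.1%, with an identical run of 268 bases, Myh8 at 89.3%, Myh4 at 88.2%, Myh3 at 81.8% and Myh13 at 80.2%. The cardiac genes were farther off, Myh6 at 78.9% and Myh7 at 78.8%, with identical runs of 39 and 38 bases. The stretch of 60 bases most like Myh6 is shown for Myh2 (coding bases 1474 to 1533, counted from 1 at the first base of the start codon) and its paralogs, with capitals at bases that differ from Myh2.
Myh2: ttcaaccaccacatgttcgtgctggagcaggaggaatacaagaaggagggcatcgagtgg
Myh1: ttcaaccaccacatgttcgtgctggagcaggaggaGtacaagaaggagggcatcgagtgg
Myh4: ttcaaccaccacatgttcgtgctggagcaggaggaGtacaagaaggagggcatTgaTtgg
Myh13: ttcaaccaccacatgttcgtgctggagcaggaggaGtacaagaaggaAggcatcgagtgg
Myh6: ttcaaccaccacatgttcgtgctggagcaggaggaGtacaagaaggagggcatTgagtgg
Myh7: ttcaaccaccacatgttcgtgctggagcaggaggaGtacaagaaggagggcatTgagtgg
These windows differ from Myh2 at 1 base (Myh1), 2 bases (Myh13, Myh6, Myh7) or 3 bases (Myh4). The sources used here do not say how reads that fit several genes were counted, so MYH2 reads cannot be told apart with certainty from those of its paralogs, and the same holds for ACTA1 and the other actins. Myoz1 was less like its paralogs, with an identity of 63.9% and a longest run of 10 bases for Myoz2, the heart and slow fibre form, and 69.2% and 11 bases for Myoz3.

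MYOZ1 had the largest share of its reads in lung of the 3 genes. It had 53.3, 34.1 and 121 FPKM in lung replicates 1 to 3, from 32, 22 and 76 reads. In stomach it had 7.89, 18.5 and 0 FPKM (3, 8 and 0 reads), and in aorta 1.85, 3.58 and 11.1 FPKM (1, 2 and 6 reads). The lowest lung library lay above every library of the other tissues, and lung held 130 of the gene's 151 reads (86.1%). A single read in spleen replicate 3 gave 1.27 FPKM. MYOZ1 was at 0 in all libraries of heart, kidney, liver and brain. With no read, the exact 95% Poisson interval of a heart library still reaches up to 8.09 FPKM, which is below the lowest lung library. The lung mean was 69.6 ± 45.9 FPKM (SD, n = 3), and the fitted difference from the mean of the other 7 tissues was 5.19 on the log2(FPKM + 1) scale (SE 0.56), a scale that understates the change of low genes. By mean level the order was lung, stomach, aorta and spleen, where stomach and aorta overlapped in range.

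Most reads counted on MYH2 were in lung and heart. It had 21.6, 12.5 and 32.2 FPKM in the lung replicates, from 61, 38 and 95 reads, and 17.9, 31.3 and 33.1 FPKM in the heart replicates, from 39, 69 and 71 reads. The ranges of lung and heart overlapped, with means of 22.1 ± 9.87 FPKM in lung and 27.4 ± 8.29 FPKM in heart (SD, n = 3 each). In stomach it had 0.558, 11.8 and 0.605 FPKM, where replicate 2 carried 24 of 26 reads. The lowest lung library was thus close above the highest stomach library. Spleen replicate 2 and brain replicate 3 had 1 read each, and MYH2 was at 0 in aorta, kidney and liver. Lung held 194 (48.4%) and heart 179 (44.6%) of 401 reads. The fitted difference of lung from the other 7 tissues was 3.47 (SE 0.41), or 4.11 (SE 0.42) when heart was left out of those tissues.

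ACTA1 was the least deeply counted of the 3 and the most uneven within lung. It had 7.27, 8.10 and 51.5 FPKM in lung, from 5, 6 and 37 reads, against 5.65, 5.58 and 9.56 FPKM in heart, from 3, 3 and 5 reads. Lung replicate 3 stood far above the others, while lung replicates 1 and 2 lay within the range of heart. Stomach had 4.58, 10.1 and 0 FPKM (2, 5 and 0 reads), again highest in replicate 2, and aorta had 1 read in replicate 3. No read fell on ACTA1 in spleen, kidney, liver or brain. Lung held 48 of 67 reads (71.6%), of which 37 came from 1 library. The lung mean was 22.3 ± 25.3 FPKM and the heart mean 6.93 ± 2.28 FPKM (SD, n = 3 each), so lung and heart did not differ beyond the spread among lung libraries. The fitted difference of lung from the other 7 tissues was 3.21 (SE 0.51), and 2.35 without lung replicate 3. The size of these differences depends on the pseudocount, and with 0.1 in place of 1 they were 7.63 for MYOZ1, 5.74 for MYH2 and 5.54 for ACTA1.

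**Figure D1:**
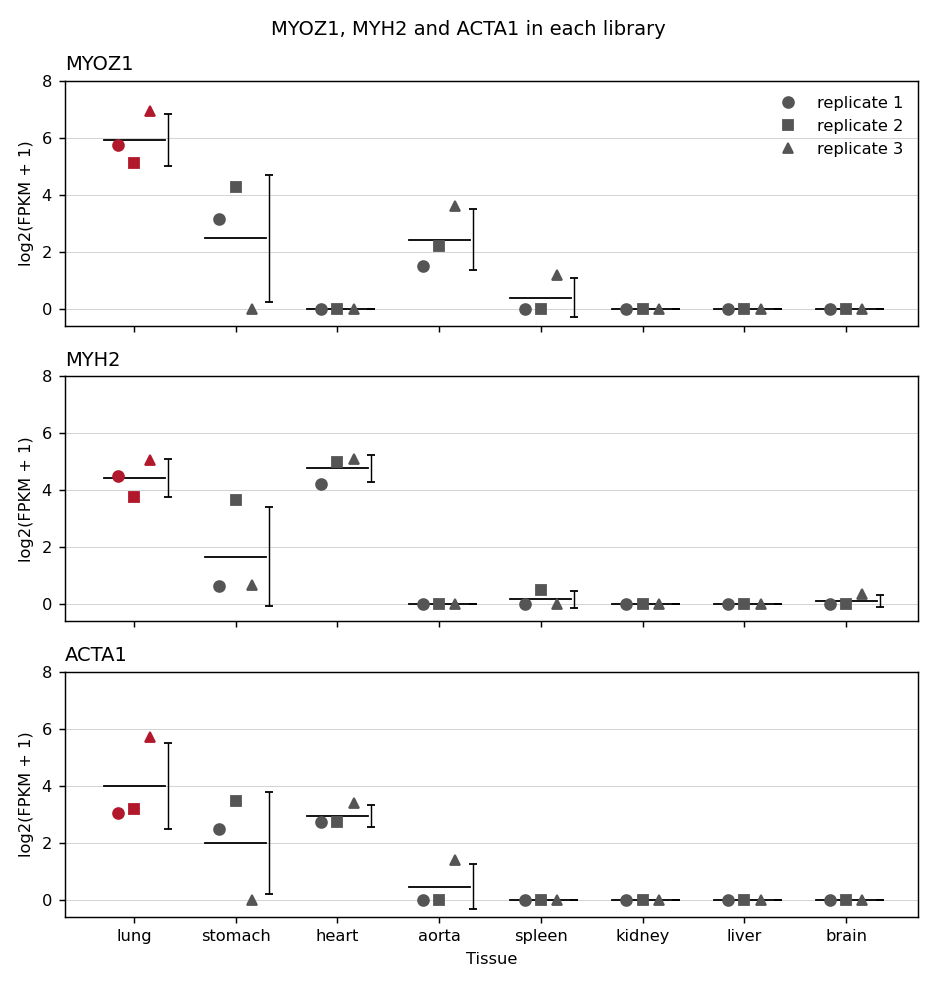
MYOZ1, MYH2 and ACTA1 in each of 24 libraries, as log2(FPKM + 1), with tissues along the horizontal axis and lung in red. Horizontal lines are means and vertical bars the SD of 3 libraries. Lung replicate 3 is the highest lung library for all 3 genes, and stomach replicate 2 the highest stomach library.

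The lung libraries differ by more than counting error in general, with a chi-square of 3.87 to 6.58 per degree of freedom between pairs of lung libraries over all genes compared. The members are described within that spread. Exact 95% Poisson intervals for MYOZ1 ran from 95.6 to 152 FPKM in lung replicate 3, against 36.5 to 75.3 in replicate 1 and 21.4 to 51.6 in replicate 2. For ACTA1 the interval was 36.3 to 71.0 FPKM in replicate 3 and 2.36 to 17.0 in replicate 1. For MYH2 it was 26.1 to 39.4 FPKM in replicate 3 and 8.85 to 17.2 in replicate 2. These intervals allow for counting error alone, since PCR copies were not told apart by molecular identifiers.

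The highest lung library was 7.09 times the lowest for ACTA1, 3.56 times for MYOZ1 and 2.58 times for MYH2. Among the 4260 genes that passed the filter, the range within lung had a median of 0.61 on the log2(FPKM + 1) scale and a 95th percentile of 2.10. ACTA1, with a range of 2.67, was 63rd in that order, MYOZ1, at 1.80, was 326th and MYH2, at 1.30, was 761st. The 10 widest genes were CYP26B1, CFAP20, LOC105372602, CXCL14, ISCA2, WDR1, JAGN1, ATP6, PSMA2 and SARS1, and none of them is in the skeletal muscle lists. CYP26B1, a retinoic acid hydroxylase, had 1.36, 26.2 and 0 FPKM in the 3 lung replicates, so its high library was replicate 2 and not replicate 3. In stomach the ranges were wider and MYOZ1 was 15th, ACTA1 49th and MYH2 86th of 4260. The skeletal muscle myosins MYH13 and MYH4 were 3rd and 7th there.

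MYH2 and ACTA1 can be set against their cardiac paralogs in the same library, as a description. MYH2 came to 25.0, 22.0 and 49.7% of the summed FPKM of MYH6 and MYH7 in the lung replicates, against 0.227, 0.498 and 0.449% in the heart replicates. ACTA1 came to 0.610, 0.891 and 5.09% of ACTC1 in lung, against 0.0134, 0.0111 and 0.0182% in heart. Both ratios were higher in every lung library than in every heart library, while the level of MYH2 itself overlapped between lung and heart. The bases of the ratios differ widely between the tissues. MYH6 and MYH7 summed to 86.4, 56.9 and 64.8 FPKM in lung, against 7868, 6284 and 7357 FPKM in heart. Cardiac actin ACTC1 was 1192, 909 and 1013 FPKM in lung, against 42103, 50310 and 52649 FPKM in heart. Whether some reads counted on MYH2 and ACTA1, in heart above all, came from these paralogs was not tested.

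**Figure D2:**
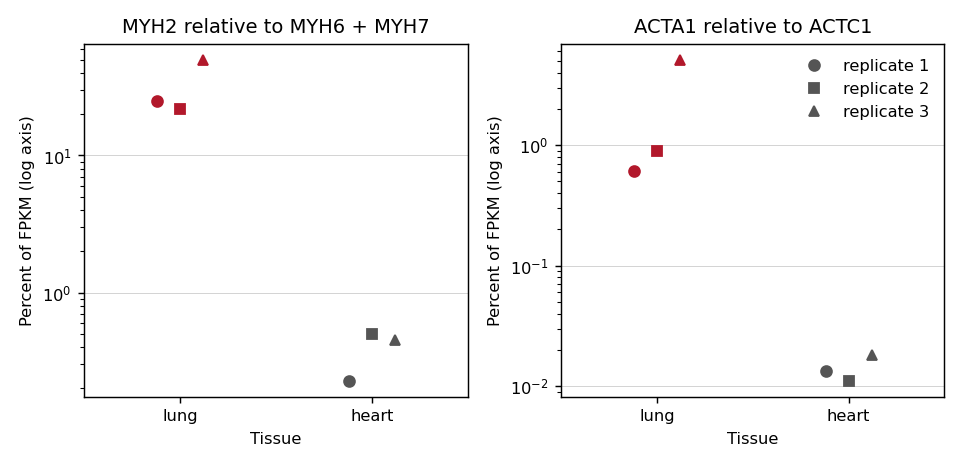
MYH2 as a percent of MYH6 plus MYH7 (left) and ACTA1 as a percent of ACTC1 (right), both from FPKM on log axes, in each lung and heart library. All lung libraries lie above all heart libraries, and lung replicate 3 is highest in both panels.

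Genes of heart muscle were also present in lung. ACTC1 was higher in lung than in the mean of the other 7 tissues by 6.23 (SE 0.38, limma adjusted p = 3.72e-10), as were MYH7 by 3.68 (SE 0.20, adjusted p = 9.78e-11) and MYH6 by 2.85 (SE 0.27, adjusted p = 1.26e-07). In these and all later calls the adjusted p over all 4260 genes had to be under 0.05 and the difference 1 or more, and 11.9% of genes were called higher and 3.64% lower in lung. Of 16 cardiomyocyte genes tested, 3 were called higher (ACTC1, MYH6 and the atrial light chain MYL7, the last on 2 lung reads) and 2 lower (CKMT2 and HAND2), and 11 were not called. Several of the 16, CKMT2 among them, passed the filter only through heart, so this count is a description too. The 17 cardiomyocyte genes in the table summed to 934 to 1246 FPKM in lung, against 48656 to 59136 FPKM in heart, most of it ACTC1 in both. TNNI3, TNNC1, MYBPC3, GATA4, CKMT2 and CSRP3 had no lung read. GATA4 had none in heart either, where TNNI3 had 7, MYBPC3 37, CSRP3 47, TNNC1 75 and CKMT2 430. ACTC1 had 71309 reads in heart and 2058 in lung, so a lack of lung reads says little for the less deeply counted of these genes. For 1000 ACTC1 reads, MYH6 had 122 in lung and 485 in heart, MYH7 had 168 in lung and 155 in heart, and the sarcomeric mitochondrial creatine kinase CKMT2 had 0 in lung and 6.03 in heart. The part of these cells in the levels of MYH2 and ACTA1 was not tested. In bulk RNA, fewer cells of a type and less RNA per cell cannot be told apart.

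The other genes of skeletal muscle were taken from 5 lists, which hold 128 genes without the 3 members. In the table were 59 of them, and 36 passed the filter. Several passed it only through lung and stomach, and others, such as CKMT2, TNNC1 and SRL, only through heart. The counts for lung and for heart are therefore a description. In lung 14 of the 36 were called higher, 1 was called lower and 21 were not called, against a background of 11.9% higher among all genes. Their median difference was 0.39, and that of all genes 0.15. In heart 19 of the 36 were called higher and 1 lower (background 6.41% higher and 17.4% lower), with a median of 1.07 against -0.44 for all genes. Over all genes 508 were called higher and 155 lower in lung, or 367 and 198 under median-ratio scaling, and 273 higher and 743 lower in heart, or 426 and 400 under that scaling. Against the 6 tissues other than heart, 16 were called higher in lung and none lower (background 11% higher and 3.9% lower), with a median of 0.44 against 0.08, and ACTN2 and ENO3 joined the 14. These comparisons share libraries. Of the 14, DES, TPM1 and MEF2A fell short of the required difference when FPKM were rescaled by median-ratio size factors, and DES, KLHL41, LDB3 and MYH1 were among those that did with a pseudocount of 5. Of the 23 genes on the lists that did not pass the filter, the most deeply counted was NEB, the giant thin filament protein nebulin, with 52 of its 79 reads in lung.

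Of 9 fast sarcomere genes in the table, 4 passed the filter and all of these were called higher in lung, against 11.9% of all genes. MYH13, MYH4 and MYH1 passed it only through lung and stomach, so they had to differ, and their differences are given with no test. MYH13, the myosin of eye and larynx muscles, had 49.2, 13.4 and 31.2 FPKM in lung and 13.1, 48.2 and 0 FPKM in stomach. MYH4, the myosin of fast type IIB fibres, had 15.1, 7.16 and 42.1 FPKM in lung and 6.34, 28.4 and 0 FPKM in stomach. The lung difference from the other 7 tissues was 4.39 for MYH13 (SE 0.61) and 3.79 for MYH4 (SE 0.55). For both, the ranges of lung and stomach overlapped and the 6 other tissues were at 0. MYH1, the myosin of type IIX fibres, had 10.1, 3.25 and 1.34 FPKM in lung and 0.551, 5.34 and 0.597 FPKM in stomach, a lung difference of 2.07 (SE 0.33). TPM1, a tropomyosin that smooth muscle and heart also use, was the fourth, with a difference of 1.20 (limma adjusted p = 1.36e-05) and its highest mean level in heart. The fast troponins and the fast alpha-actinin fell below the filter, with TNNT3, TNNC2 and ACTN3 at 1, 1 and 2 lung reads and TNNI2 at 0.

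Of the slow and shared sarcomere genes, 6 of 12 (50%, against 11.9% of all genes) were called higher in lung and none lower. The 6 were the slow and cardiac myosin MYH7, the tropomyosin TPM3, the Z-disc protein LDB3, the nebulin-binding KLHL41, the intermediate filament gene DES and the small heat shock protein CRYAB. KLHL41 had 5.29, 2.46 and 16.9 FPKM in lung, against 27.4, 19.2 and 20.9 FPKM in heart and 0, 3.67 and 0 FPKM in stomach. Its lung replicate 3 was the highest of the 3, as in the members, and every lung library lay below every heart library. LDB3, which binds alpha-actinin, had 6.97, 4.32 and 15.0 FPKM in lung, against 309, 307 and 377 FPKM in heart. Its lung difference of 1.40 (SE 0.41, limma adjusted p = 0.0123) was 0.97 without lung replicate 3 (adjusted p = 0.153). DES, at 1.16 (adjusted p = 0.00414), was 0.80 without lung replicate 2 (adjusted p = 0.0808). CRYAB averaged 72.9 ± 30.1 FPKM in lung and 344 ± 96.0 FPKM in heart (SD, n = 3 each), with a lung difference of 2.22 (adjusted p = 0.00169). The thin filament gene TNNC1 and the giant protein TTN were not called, at -0.95 and -0.11.

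**Figure D3:**
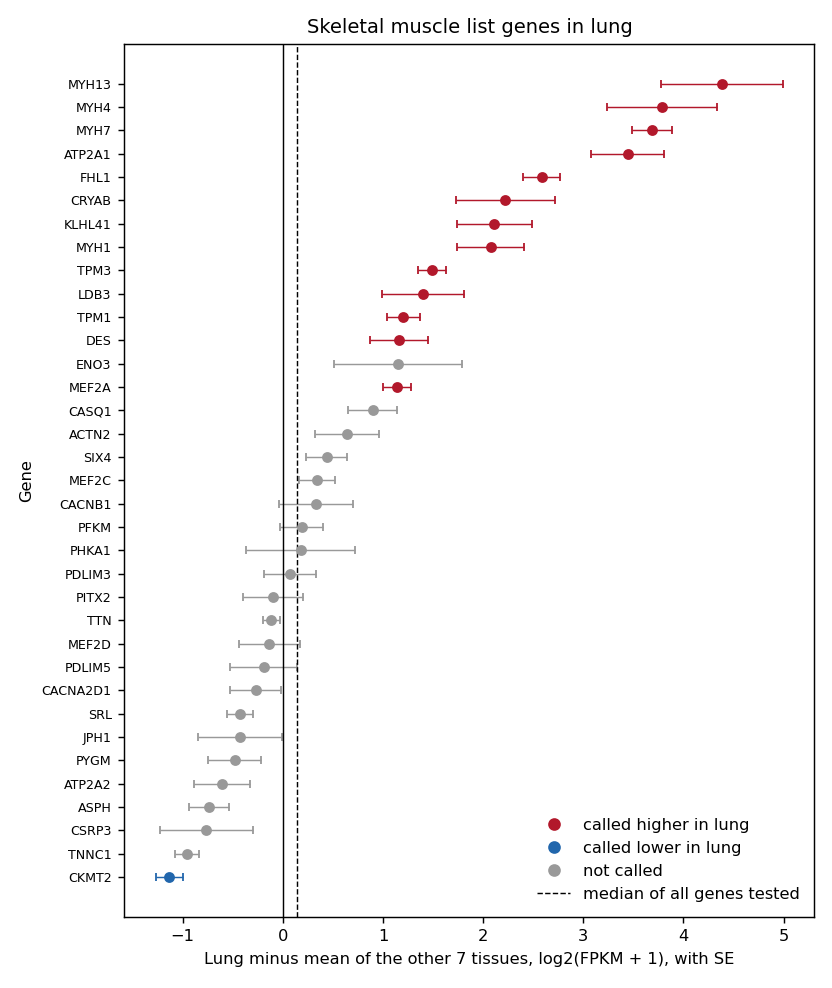
Difference of lung from the mean of the other 7 tissues for skeletal muscle list genes that passed the filter, in log2(FPKM + 1), with bars for the SE. The dashed line is the median of all 4260 genes tested, at 0.15, and the 4 largest differences are MYH13, MYH4, MYH7 and ATP2A1.

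Of 8 calcium handling genes tested, 1 was called higher in lung (12.5%), near the 11.9% of all genes, and the list's median difference was -0.35. The gene was ATP2A1. ATP2A1 (SERCA1), the calcium pump of fast fibres, had 14.1, 4.54 and 22.8 FPKM in lung, 1.93, 5.94 and 0 FPKM in stomach and no read elsewhere. It passed the filter only through lung and stomach, and its lung difference of 3.45 (SE 0.36) is a description. The pump of heart and slow fibres, ATP2A2, was not called, at -0.61 (limma adjusted p = 0.105), and CASQ1, the calcium-binding protein of fast fibre stores, was at 0.90 (adjusted p = 0.00738), below the required difference. RYR1, the calcium release channel, had no lung read and CACNA1S, its voltage sensor, had 1.

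Among 6 metabolic genes tested, FHL1 was called higher (16.7%, against 11.9% of all genes) and CKMT2 lower (3.64% of all genes were). FHL1, a LIM protein of many muscle types, averaged 1688 ± 145 FPKM in lung, below 3640 ± 467 FPKM in aorta and near 1798 ± 228 FPKM in stomach (SD, n = 3 each). CKMT2 had no read outside heart, where it had 195, 248 and 293 FPKM. It passed the filter only through heart, so its lung difference of -1.13 is a description. With a pseudocount of 5 that difference was -0.80 and no longer called. The muscle enolase ENO3 had 5.14, 2.39 and 25.8 FPKM in lung and 181, 181 and 304 FPKM in heart. Lung replicate 3 was again the high one, and ENO3 was not called (1.15, limma adjusted p = 0.189). Among the regulators, MEF2A, a transcription factor of muscle and of other tissues, was called higher in lung (1.14, adjusted p = 3.67e-06). It averaged 108 ± 11.0 FPKM in lung (SD, n = 3), and its highest mean level was in aorta. MYOD1, MYF5, MYOG and CKM are on the lists but were not in the table, so nothing can be said of their levels.

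**Figure D4:**
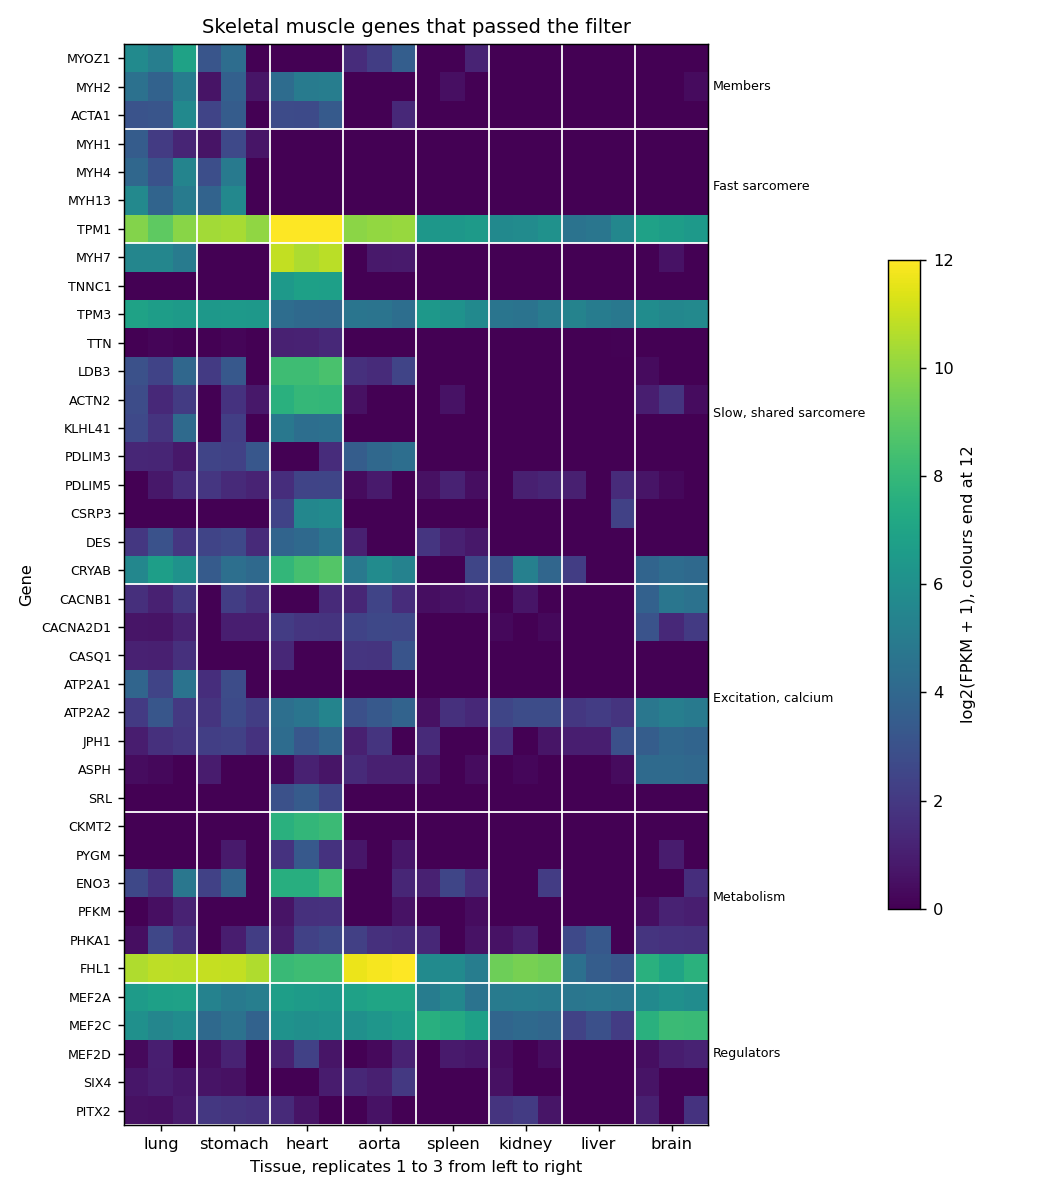
Level of the 3 members and of list genes that passed the filter in each library, as log2(FPKM + 1), with genes in rows by list and libraries in columns by tissue. MYH1, MYH4, MYH13 and ATP2A1 have reads in lung and stomach and in no other tissue.

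In the wider myosin heavy chain family, 9 of 10 genes tested (90%, against 11.9% of all genes) were called higher in lung and none lower. Of these, MYH1, MYH3, MYH4 and MYH13 passed the filter only through lung and stomach, so the count is a description. The 9 include the embryonic myosin MYH3 (3.24) and the non-muscle myosins MYH9, MYH10 and MYH14, and the exception was the smooth muscle myosin MYH11 (0.43, limma adjusted p = 0.172). Of the 5 other actins, ACTC1, ACTB (2.49, adjusted p = 0.00200) and ACTG2 (1.77, adjusted p = 0.00146) were called higher (60%). ACTB had 3.59, 25.6 and 36.7 FPKM in lung, so the values counted on this cytoplasmic actin were also uneven among the lung libraries. They rest on 58 reads in lung and 137 over all 24 libraries. How reads were divided among the actins is not known, so these values may not follow the level of ACTB. Of the 7 tested genes that encode calcineurin and its targets or partners of MYOZ1 at the Z-disc, 1 was called higher. That gene was LDB3, and the share (14.3%) was near the 11.9% of all genes. The calcineurin subunits PPP3CA and PPP3CB were at 0.88 and -0.64, and both stayed below the required difference.

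MYH1, MYH4, MYH13, MYH3 and ATP2A1 had reads in lung and stomach and none in the other 6 tissues, heart included. MYH13 had 266 reads in lung and 119 in stomach, MYH4 had 199 and 73, MYH3 had 87 and 15, ATP2A1 had 70 and 9, and MYH1 had 43 and 13. Of the 4260 genes, 13 (0.305%) had reads in both of these tissues and in no other. The other 8 were FOXF2, KRT14, KRT17, PITX1, PKP1, SLC26A9, TBX4 and ZNF653, of which KRT14, KRT17 and PKP1 are genes of stratified epithelium. They were named after their values were seen.

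The stomach values rested mostly on 1 library. Stomach replicate 2 was the highest stomach library for all 3 members, and for 21 of the 29 tested list genes with a stomach read (72.4%), against 36.9% of all genes with one. Stomach replicate 3 had no read of MYOZ1, ACTA1, MYH4, MYH13, MYH3 or ATP2A1. In lung, replicate 3 was the highest for 14 of 31 list genes (45.2%), against 29.8% of all genes. The list genes did not all follow it, since MYH13 and MYH1 were highest in lung replicate 1 and CRYAB and DES in replicate 2.

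Markers of tissues that could be taken along in dissection were summed. Genes of stratified epithelium summed to 7.71 to 15.9 FPKM in lung and 32.8 to 65.3 FPKM in stomach, with all 6 genes in the table above 0 in lung and KRT5 and PAX9 at 0 in stomach. In lung, SOX2 (4.42 ± 0.35 FPKM) and KLF5 (5.15 ± 3.56 FPKM, SD, n = 3 each) made up most of that sum. The same genes summed to 11.0 to 13.4 FPKM in brain, within the range of lung, and SOX2 had its highest mean level there. For some tissues few markers could be measured. The 3 of 14 cartilage genes in the table summed to 0.289 to 1.29 FPKM in lung with SOX9 at 0. The 4 of 12 brown fat genes summed to 2.40 to 6.13 FPKM in lung with ZIC1 at 0, and the 2 of 7 thyroid genes to at most 0.621 FPKM with PAX8 at 0. Schwann cell and nerve genes summed to 32.0 to 46.5 FPKM in lung, with all 7 genes in the table above 0, against 52.7 to 93.6 FPKM in stomach, 37.7 to 140 FPKM in aorta and 11.2 to 38.7 FPKM in heart. Genes of tendon and fascia summed to 28.2 to 48.5 FPKM in lung with DCN at 0, against 30.03 to 40.03 FPKM in stomach, 11.4 to 15.4 FPKM in heart and 165 to 197 FPKM in aorta. Their part in the levels of MYOZ1, MYH2 and ACTA1 was not tested.

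Over the 24 libraries, the members followed each other unevenly. Pearson's r of log2(FPKM + 1) was 0.90 between MYH2 and ACTA1, 0.73 between MYOZ1 and ACTA1 and 0.49 between MYOZ1 and MYH2. MYH2 had reads in all heart libraries, where MYOZ1 had none. Among the 4260 genes, those most like MYOZ1 were PDE5A (r = 0.91), ATP2A1 (0.91), MYH4 (0.89), MYH13 (0.88) and MYH3 (0.87). PDE5A, a cyclic GMP phosphodiesterase of vascular and lung smooth muscle, averaged 6.56 ± 0.741 FPKM in lung and 3.23 ± 1.04 FPKM in aorta (SD, n = 3 each), and was even among the lung libraries where MYOZ1 was not. Most like MYH2 were KLHL41 (0.96), SCUBE2 (0.93), ITGB1BP2 (0.93), ACTA1 (0.90) and ACTC1 (0.89). Most like ACTA1 were MYH2 (0.90), KLHL41 (0.84), FAM189A2 (0.84), SCUBE2 (0.83) and ACTC1 (0.79). SCUBE2, a secreted protein, had means of 19.5 ± 11.9 FPKM in lung and 16.9 ± 4.21 FPKM in heart. The libraries share tissues and depth and most values are 0, so these are descriptions.

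Over the 8 tissue means, the genes most like MYOZ1 were COPZ2, CEBPD, ABI3BP, KLF6 and PDE5A (r from 0.95 to 0.97). Those most like MYH2 were SCUBE2, KLHL41, ACTA1, ITGB1BP2 and UNC45B (0.93 to 0.97), of which UNC45B is a muscle myosin chaperone. Those most like ACTA1 were MSTN, MYH2, FAM189A2, IRX5 and SCUBE2 (0.91 to 0.96). MSTN, the muscle growth inhibitor myostatin, rested on 5 reads in lung, 5 in stomach and 3 in heart, and COPZ2 on 2 in lung.

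The promoters of Acta1 and Myh2 are shown, since the promoter set used here held none for Myoz1. They are the 250 bases before the RefSeq start (GRCm38.p6), Acta1 on the minus strand at chr8:123894776-123895025 and Myh2 on the plus strand at chr11:67170777-67171026, with motif matches in capitals.
Acta1: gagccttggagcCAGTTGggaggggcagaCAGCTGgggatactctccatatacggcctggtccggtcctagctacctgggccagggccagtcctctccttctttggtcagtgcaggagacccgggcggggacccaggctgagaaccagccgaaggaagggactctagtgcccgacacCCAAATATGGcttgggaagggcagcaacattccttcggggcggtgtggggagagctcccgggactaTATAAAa
Myh2: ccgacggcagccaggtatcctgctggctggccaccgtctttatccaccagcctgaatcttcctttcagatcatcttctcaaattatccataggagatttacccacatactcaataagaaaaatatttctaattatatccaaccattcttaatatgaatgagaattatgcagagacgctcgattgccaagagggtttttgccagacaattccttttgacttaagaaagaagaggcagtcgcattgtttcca
On both strands, 4 motifs were searched, the E-box CANNTG bound by myogenic factors, the CArG box bound by serum response factor, the MEF2 motif and TATAAA. The Acta1 window held E-boxes at 238 to 233 and 221 to 216 bases before the start, a CArG box at 73 to 64 and TATAAA at 7 to 2, and the Myh2 window held none of the 4. The E-box was present in 66.2% of 32851 mouse promoter windows of this length, TATAAA in 12.4%, the MEF2 motif in 2.92% and the CArG box in 1.47%.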

How the data were processed

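Bulk RNA was extracted with TRIzol and made into libraries with a VAHTS kit, per the labels' protocols, from 8 tissues with 3 libraries each. The submitters' processing notes name fastp, HISAT2, HTSeq and the human build GRCh38.p13. The sources used here do not state versions, annotation, strand setting or the treatment of reads that fit several genes. For each library the authors deposited FPKM, scaled by gene length and library depth, for 7493 genes, and 91.4% of the symbols match a mouse symbol. Mouse genes enter such values only through sequence shared with the human gene.

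Whole reads were recovered from the FPKM steps for 7493 of 7493 genes (100%), within 1e-05 reads plus 2e-08 of the value, and gave totals of 193900 to 642307 per library. A gene without a read may still be expressed at a low level. For MYOZ1 in heart replicate 3, the exact 95% Poisson interval of 0 reads reached 8.09 FPKM, where 1 read is worth 2.19 FPKM. Values were fitted as log2(FPKM + 1) with limma 3.58.1 (R 4.3.3, mean-variance trend) to 8 tissue means over the 4260 genes that reached 1 FPKM in 3 or more libraries. Calls needed a difference of 1 or more and a Benjamini-Hochberg adjusted p under 0.05. The fit was tested on simulated data. Python 3.11.15 and Biopython 1.88 handled the sequences, from RefSeq (GRCm38.p6) and GENCODE M21 transcripts.

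The members and the gene lists were chosen with earlier results of these data known. Genes were named as members, as list genes, as the 5 genes most like each member, as the 10 genes widest within lung, or as the 2 most abundant markers of each cell type list, and further markers by example. The list counts include 1 gene that is not reported here by name or value. Alternatives were other pseudocounts, filters and scaling, limma voom on the recovered reads, a replicate block, each library left out in turn, and, chosen after seeing the data, aorta replicates 1 and 3 left out together.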

Additional observations from a re-analysis of the deposited data

How the results depend on the processing

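The lung differences of the 3 members and of the named list genes called in lung kept their sign under the alternatives run. With a pseudocount of 5, calls against the other 7 tissues came to 244 higher and 55 lower in lung and 153 higher and 303 lower in heart. Against the 6 tissues other than heart they came to 237 and 70 in lung, and list genes in lung to 9 higher and 0 lower, with 3.40 for MYOZ1 and 1.88 for MYH2. With a pseudocount of 0.1 the values were 7.63 for MYOZ1, 5.74 for MYH2 and 5.54 for ACTA1, 255 genes were lower in lung than in the 6 tissues, and 2 list genes were lower. Median-ratio scaling, which moved the median lung difference of all genes from 0.15 to -0.02, turned the balance of calls in heart to 426 higher and 400 lower, against 273 and 743 without it, and gave 2 list genes lower in lung. Limma voom on recovered reads gave 4.96 for MYH2, 457 and 469 genes lower in lung than in the 7 and the 6 tissues, and 5 list genes lower. The cause of these shifts was not tested.

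Leaving out each library in turn gave 1 to 2 list genes lower in lung, with 2 without lung replicate 2, and 13 to 15 higher. The lung differences ran from 4.69 to 5.59 for MYOZ1, 3.16 to 3.81 for MYH2 and 2.35 to 3.68 for ACTA1. Deviations of same-numbered libraries correlated only weakly (84 correlations from -0.06 to 0.13, median 0.02). Between lung and stomach, heart, spleen or liver, all 3 lung libraries correlated best with their own number, while between stomach and brain 0 did. Whether a number stands for a shared animal or batch cannot be told from this. The numbers were not taken as pairs, and the p-values treat libraries as independent. A fit with the replicate block called 510 genes higher in lung, against 508 without it, and 14 list genes higher and 1 lower. Both other filters gave counts of calls within 1.5 times those reported. Depth limits ACTA1 most, with 5 and 6 reads in lung replicates 1 and 2, and 1 MYOZ1 read in lung is worth 1.55 to 1.67 FPKM.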
